A study of Caenorhabditis elegans with 2 samples.

Results

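The basic helix-loop-helix (bHLH) transcription factor genes of Caenorhabditis elegans were examined for binding of FKH-10, a forkhead protein, in L3 larvae. The members were 40 of 19973 protein-coding genes, chosen by a rule that reads their symbols in Ensembl on WBcel235 and uses no measured value, though the family was picked with earlier results of these data known. The symbols starting hlh-, mxl-, mdl- and ref- gave 25, 3, 1 and 2 genes, and 9 genes were named singly (lin-32, lin-22, cnd-1, ngn-1, hif-1, aha-1, ahr-1, cky-1 and sbp-1). Of these, ref-2 was caught by its symbol but encodes a Zic-type zinc finger protein, while the bHLH gene mml-1 has another symbol and was not a member. Each gene's window ran from 2 kb upstream of its 5′ end to the end of the gene, and a region counted where its summit, the position of its highest signal, lay in that window.

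Chromatin immunoprecipitation with sequencing (ChIP-seq) was performed on whole animals of both sexes, pooled, in 1 group of 2 biological replicates. The animals were of strain OP337, in which unc-119(ed3) is the background and the integrated transgene wgIs377 carries fkh-10::TY1::EGFP::FLAG together with unc-119 as its marker. The protein measured was therefore the tagged product of a transgene, in all cell types at once, and no group without the transgene or in another state was analysed here. The deposited lists on build ce11 (WBcel235) were a thresholded list of 2005 peaks, made from the replicates by the irreproducible discovery rate, and 30000 candidate regions each for replicate 1, replicate 2 and both pooled. The signal of a region is the value the authors' caller gave it, with a scaling that is not stated, so signals and ranks are read within 1 list. All 2005 thresholded peaks were the 2005 strongest pooled regions, and the weakest of them had a signal of 28.2. How deeply the libraries were sequenced is unknown. In the windows of the strain's own genes, fkh-10 had no summit in any list, and unc-119 had 1 thresholded summit with a signal of 51.1.

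Proteins of the bHLH class bind DNA as dimers, most of them at the E-box CANNTG. MyoD-, Twist-, achaete-scute- and atonal-type members set muscle, mesoderm and nerve cell fates, and the REF-1 and Hes types act as repressors, several of them downstream of Notch. Others sense the state of the animal: HIF-1 with its partner AHA-1 acts in low oxygen, HLH-30 (TFEB type) in fasting and autophagy, SBP-1 (SREBP type) in lipid synthesis, and the Max and Mad types in growth and life span.

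The 101 bp around the summits of 6 of the 7 thresholded peaks at these genes are shown. The word counts below rest on these sequences and on that of aha-1, which is not printed. Of the 7, the aha-1 sequence had the lowest G and C content, 29.7%. All were read from the RefSeq genome sequence of WBcel235 (ce11), on the plus strand of the genome, 5′ to 3′. Capitals mark a word that was searched for, namely CTCTCTC upstream of hif-1, GCGTCTC (the complement of GAGACGC) at hlh-30 and the palindromic E-box CACGTG at mdl-1.
hif-1, intron, chrV:20782301-20782401: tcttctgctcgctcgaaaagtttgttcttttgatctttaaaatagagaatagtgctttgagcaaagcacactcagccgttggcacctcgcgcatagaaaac
hif-1, upstream, chrV:20778559-20778659: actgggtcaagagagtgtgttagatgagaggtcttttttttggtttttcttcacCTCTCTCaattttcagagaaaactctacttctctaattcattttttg
hlh-11, upstream, chrIII:9619364-9619464: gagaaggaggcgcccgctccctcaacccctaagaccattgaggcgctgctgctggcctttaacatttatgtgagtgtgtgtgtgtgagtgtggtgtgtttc
hlh-30, upstream, chrIV:4035013-4035113: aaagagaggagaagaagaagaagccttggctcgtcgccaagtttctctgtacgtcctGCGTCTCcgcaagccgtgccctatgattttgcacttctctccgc
mdl-1, near upstream, chrX:6742175-6742275: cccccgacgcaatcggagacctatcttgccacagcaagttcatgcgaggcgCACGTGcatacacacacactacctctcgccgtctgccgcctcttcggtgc
mdl-1, far upstream, chrX:6740800-6740900: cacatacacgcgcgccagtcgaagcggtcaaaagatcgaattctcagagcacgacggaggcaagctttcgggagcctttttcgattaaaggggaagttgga

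Thresholded FKH-10 summits lay at 5 of the 40 bHLH genes: hif-1 and mdl-1 with 2 summits each, and aha-1, hlh-11 and hlh-30 with 1 each. That is 12.5% of the members (exact 95% binomial interval 4.19% to 26.8%), against 8.71% of all protein-coding genes, so the share of members was near the background. All 5 belong to the lists of PAS, of Max and Mad, and of SREBP, TFEB and AP4 types, which together had 5 of 12. The tissue, achaete-scute, atonal, and REF-1 and Hes lists together had 0 of 24, which is near the background of 8.71%. The lists were joined into these sets after their counts were seen. Their median windows also differed, with 5788 bp for the 12 genes and 3507.5 bp for the 24. Among each replicate's own 2005 strongest regions, 4 of 40 bHLH genes had a summit in replicate 1, against 8.62% of all genes, and 5 of 40 in replicate 2, against 8.33%. The gene absent from the stronger regions of replicate 1 was hlh-30.

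**Figure D1:**
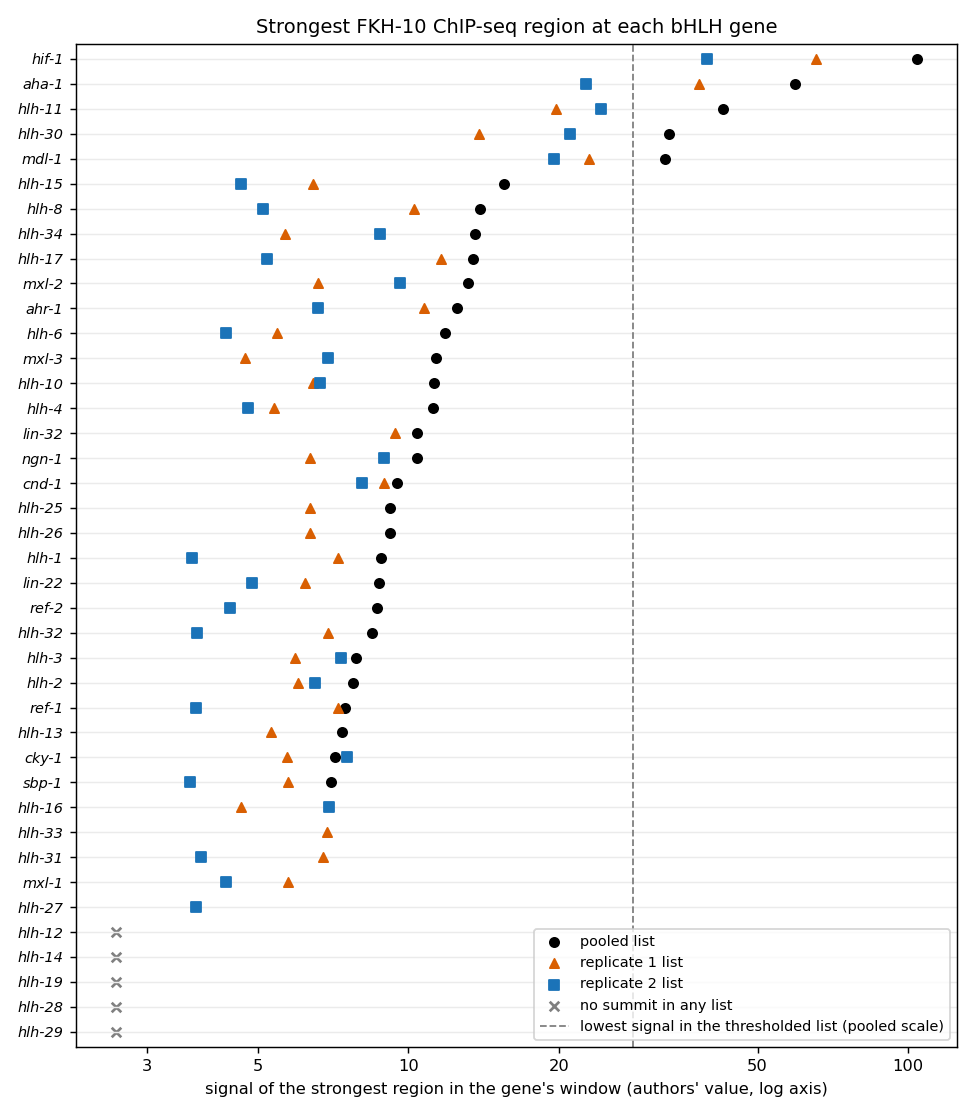
Strongest region in the window of each of the 40 bHLH genes in the pooled list (circles), replicate 1 (triangles) and replicate 2 (squares), as the authors' signal on a log axis. Only hif-1, aha-1, hlh-11, hlh-30 and mdl-1 have a pooled circle right of the dashed line, the lowest signal of the thresholded list (28.2), and the 5 genes at the bottom have no summit in any list.

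The gene hif-1 (WBGene00001851), which encodes the oxygen-regulated bHLH-PAS subunit of the hypoxia-inducible factor, had the strongest peak of the family. That peak (V: 20782169 to 20782532) had a pooled signal of 104 and rank 33, and 98.4% of all thresholded peaks were at or below it. Its summit lay in an intron, 1944 bp into the gene and 121 bp upstream of the annotated start of the shorter transcript F38A6.3c.1. The overlapping region had a signal of 65.4 and rank 32 in replicate 1, and a signal of 39.6 and rank 87 in replicate 2. It was thus near the top of both lists.

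The second hif-1 peak (V: 20778427 to 20778790) lay between genes, with its summit 1798 bp upstream of the 5′ end, a pooled signal of 38.7 and rank 1178. In replicate 1 the matching region had a signal of 24.3 and rank 1155, and in replicate 2 a signal of 22.3 and rank 610. A stronger thresholded peak (V: 20778204 to 20778567), with a pooled signal of 59.9 and rank 380, overlapped it, and its summit lay 2021 bp upstream, just outside the window. That peak matched a region of replicate 1 of its own, with a signal of 45.3 and rank 187, but the same region of replicate 2 as the peak in the window. The upstream hif-1 peak in the window therefore had no replicate 2 region to itself, and its summit was 223 bp from that of the stronger peak. None of the other 6 thresholded peaks at bHLH genes overlapped another thresholded peak. The hif-1 window also held 2 candidate regions in coding exons below the threshold, with pooled signals of 10.8 and 7.23. The first was overlapped by a region in replicate 1 only and the second in replicate 2 only.

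The gene aha-1 (WBGene00000095) encodes the orthologue of ARNT, the bHLH-PAS protein that pairs with HIF-1 and with AHR-1. Its peak (I: 10196938 to 10197301) had a pooled signal of 59.3 and rank 385, with the summit 123 bp upstream. The region had a signal of 38.1 and rank 349 in replicate 1 and a signal of 22.7 and rank 593 in replicate 2, so both replicates placed it well within their 2005 strongest. C25A1.15 starts 201 bp from this intergenic summit, and the summit fell in the window of that gene as well. It was the only thresholded summit of the 7 that the window of another protein-coding gene shared, and which of the 2 genes it concerns cannot be told from its position.

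The gene hlh-11 (WBGene00001955) encodes the AP4-type bHLH protein. Its single candidate region in the pooled list was also a thresholded peak (III: 9619232 to 9619595), with a signal of 42.7, rank 961 and a summit 297 bp upstream. The region had a signal of 19.7 and rank 1647 in replicate 1, and a signal of 24.3 and rank 478 in replicate 2. It was among the 2005 strongest of both and ranked higher in replicate 2, whereas the hif-1 intron peak and the aha-1 peak ranked higher in replicate 1. The upstream hif-1 peak also ranked higher in replicate 2, but by a region that it shared with a stronger peak.

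The gene hlh-30 (WBGene00020930) encodes the TFEB-type regulator of autophagy and lysosome genes. Its thresholded peak (IV: 4034881 to 4035244) had a pooled signal of 33.2, rank 1555 and a summit 112 bp upstream of the 5′ end. The overlapping region had a signal of 10.6 and rank 5257 in replicate 1, far below the 2005 strongest, and a signal of 16.9 and rank 1170 in replicate 2. The region at the hlh-30 peak thus ranked higher in replicate 2 than in replicate 1.

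The hlh-30 window, 22159 bp long, held 14 of the pooled candidate summits, the most of any member. A pair of them in introns came closest to the threshold among all regions of the family that missed it. The first (IV: 4019931 to 4020294) had a pooled signal of 27.7 and rank 2071, 14838 bp into the gene and 1069 bp upstream of the start of a short transcript. It had a signal of 7.24 and rank 13120 in replicate 1, and a signal of 21.1 and rank 723 in replicate 2. The second, 10755 bp into the gene, had a pooled signal of 22.9 and rank 2725, with rank 18916 in replicate 1 and rank 1878 in replicate 2. In both, as at the promoter, the region ranked higher in replicate 2. The strongest region of the gene in replicate 1, with a signal of 13.9 and rank 3001, lay 15539 bp into the gene and had no overlapping region in replicate 2 at the matching pooled summit. In neither replicate was the promoter the site of the strongest hlh-30 region, since in replicate 2 that was the intron region with a signal of 21.1.

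The gene mdl-1 (WBGene00003163) encodes the Mad-type partner of the Max protein MXL-1. The nearer of its peaks (X: 6742043 to 6742406) had a pooled signal of 32.6, rank 1599 and a summit 126 bp upstream, with a signal of 17.97 and rank 1939 in replicate 1 and a signal of 13.3 and rank 1852 in replicate 2. A stronger region of replicate 2, with a signal of 19.6 and rank 868, had its summit at −304 bp from the 5′ end. It also overlapped the nearer peak, but the match was taken by the nearest summit. The farther peak (X: 6740668 to 6741031) had a pooled signal of 29.5, rank 1867 and a summit 1501 bp upstream. It was the weakest thresholded peak of the family. By the regions with the nearest summits, it was also the one on which the replicates differed most. These had a signal of 23.0 and rank 1280 in replicate 1 but a signal of 4.70 and rank 19235 in replicate 2. In replicate 2 another region overlapped this peak as well, and its rank is not given here.

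**Figure D2:**
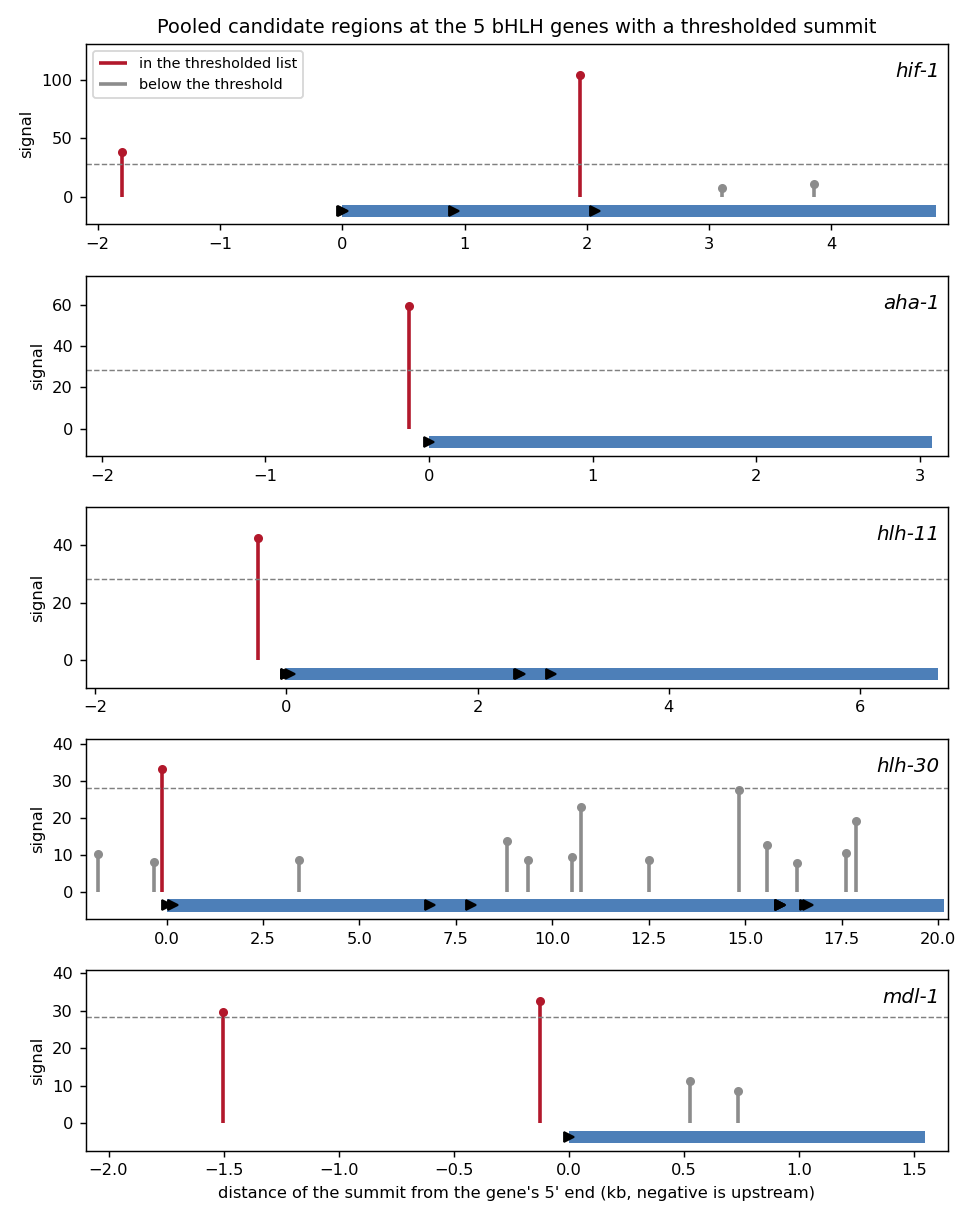
Pooled candidate regions at the 5 bHLH genes with a thresholded summit, drawn at the distance of the summit from the 5′ end (kb) with the signal as height, thresholded in red and below the threshold in grey. Blue bars are the genes, black arrowheads annotated transcript starts and dashed lines the lowest thresholded signal (28.2). The strongest hif-1 summit in the window stands beside an internal transcript start, the aha-1 and hlh-11 summits stand alone, and hlh-30 has 13 weaker regions, most of them along its introns.

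As a set, the 7 thresholded peaks had a median signal of 38.7 (29.5 to 104), against 41.8 for all 2005 (28.2 to 182). Of the 7 summits, 4 lay within 500 bp upstream of the 5′ end, 2 at 500 to 2000 bp upstream and 1 in the gene. Over all 2105 pairs of a gene and a thresholded summit, the shares were 34.8%, 31.7% and 33.5%. By the annotation 6 of the 7 summits lay between genes and 1 in an intron. In each replicate 6 of the 7 matched a region among its 2005 strongest, and 5 did so in both, against 58.6% of all thresholded peaks. These 5 include the upstream hif-1 peak with its shared replicate 2 region. The exceptions, by the overlapping region with the nearest summit, were hlh-30 in replicate 1 and the farther mdl-1 peak in replicate 2.

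**Figure D3:**
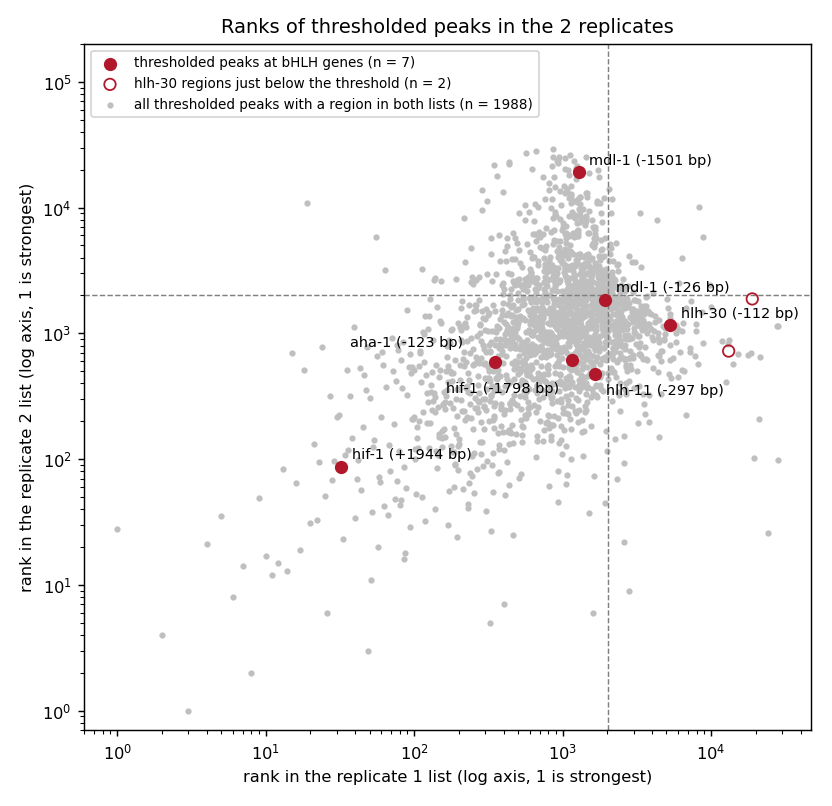
Rank of the overlapping region in replicate 1 (horizontal) and replicate 2 (vertical), both on log axes with 1 the strongest, for the 7 thresholded peaks at bHLH genes (filled red, labelled with the distance of the summit from the 5′ end), for 2 hlh-30 regions just below the threshold (open red) and for all thresholded peaks found in both lists (grey). Dashed lines mark rank 2005; the hif-1 intron peak lies at the strong end of both axes, and the farther mdl-1 peak and hlh-30 each lie outside on 1 axis.

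The 101 bp at the 7 summits held none of the forkhead core forms GTAAACA or ATAAACA, nor the variants GTAAATA or ATAAATA, on either strand, and 5.54% of all 2005 thresholded summits held at least 1 of them. An E-box CANNTG was present at 1 of the 7, the nearer mdl-1 summit, against 31.4% of all summits, and there it had the form CACGTG, the site that Max-type dimers bind. CACGTG was counted after these sequences had been seen, and 2.44% of all thresholded summits held it. GAGACGC was present at 1 of the 7, at hlh-30, against 8.63% of all summits. AGAGAGA and GAAGAGA were at none of the 7, against 11.4% and 10.1% of all summits. CTCTCTC, also counted after the sequences had been seen, was at 1 of the 7, the upstream hif-1 summit, against 11.5%. On the other strand CTCTCTC reads GAGAGAG, which overlaps AGAGAGA, so these words are not independent. The G and C content of the 7 averaged 47.0% ± 11.6 (SD, n = 7), with a median of 52.5%, against 43.5% ± 8.69 (SD, n = 2005), with a median of 43.6%. The difference was not tested. A missing match says only that these letters were not within the 101 bp.

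By subfamily, the bHLH-PAS list (aha-1, ahr-1, cky-1, hif-1 and hlh-34) had a thresholded summit at 2 of 5 genes, the list of SREBP, TFEB and AP4 types (hlh-11, hlh-30 and sbp-1) at 2 of 3, and the Myc, Max and Mad list (mdl-1, mxl-1, mxl-2 and mxl-3) at 1 of 4. These lists together had 5 of 12. The tissue list (hlh-1, hlh-2, hlh-8, hlh-13 and hlh-15), the achaete-scute list (hlh-3, hlh-4, hlh-6, hlh-14 and hlh-19), the atonal, neurogenin and Olig list (lin-32, cnd-1, ngn-1, hlh-16, hlh-17, hlh-31 and hlh-32) and the REF-1 and Hes list (ref-1, hlh-25 to hlh-29 and lin-22) together had 0 of 24. The 4 members in no list (hlh-10, hlh-12, hlh-33 and ref-2) had 0. Over all protein-coding genes the share was 8.71%, so that few or no genes in a group of 24 is near the background. The lists were joined into these sets after their counts were seen, and the split was given no test. The windows differed along with it: the median was 5788 bp for the 12 genes and 3507.5 bp for the 24.

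A longer window has more room for a summit, and members with a thresholded summit had longer windows than those without, with a median of 6854 bp (n = 5) against 3511 bp (n = 35). When all protein-coding genes were ordered by window length and cut into 4 classes of like size, members with a thresholded summit numbered 0 of 12 in the shortest class, 1 of 13 and 1 of 4 in the next, and 3 of 11 in the longest. Over all genes the shares in the same classes were 5.80%, 4.73%, 7.41% and 16.9%. The part of window length in the split by subfamily was not tested.

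**Figure D4:**
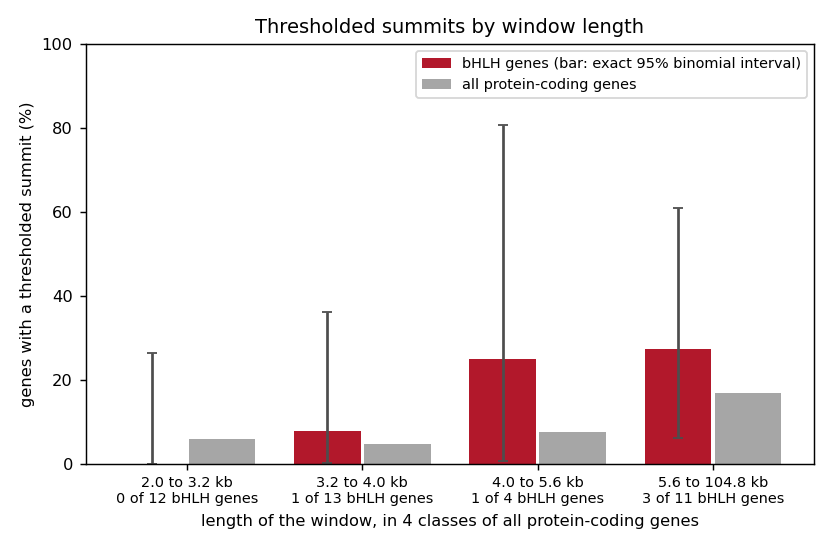
Share of genes with a thresholded summit (%) in 4 classes of window length, for the bHLH genes (red, with exact 95% binomial intervals) and all protein-coding genes (grey). The share is highest in the longest windows in both, with 3 of 11 bHLH genes against 16.9% of all genes, and every bHLH interval is wide.

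The candidate lists, which reach far below the threshold, gave shares near those of the genome. A pooled candidate summit lay in the windows of 30 of 40 bHLH genes, against 70.2% of all genes, and the median density was 2.97 per 10 kb of window in members and 2.70 in all genes. Replicate 1 had a candidate summit at 33 of 40 members (82.5%, exact 95% interval 67.2% to 92.7%), against 69.9% of all genes, and replicate 2 at 30 of 40, against 70.7%. The strongest pooled region of a member had a median signal of 10.8, against 11.6 over all genes with a region. The 68 distinct pooled regions at members lay in introns (24), between genes (22), in coding exons (16) and in 5′ and 3′ UTRs (4 and 2). These places are by the annotation of any protein-coding gene and not of the member alone. They are given without the same counts over all pooled regions. Of the 61 below the threshold, 36.1% were overlapped by a region in both replicates, against 32.3% of all such pooled regions.

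Across the 28 members with a region in both replicates, the signal of the strongest region in replicate 1 and in replicate 2 had a Spearman correlation of 0.36. Without the 5 genes that had a thresholded summit it was −0.15 (n = 23). Within a gene, the strongest regions of the replicates can lie at different sites, as at mdl-1 (−1503 bp in replicate 1 and −304 bp in replicate 2). The 5 genes left out were picked by a list made from both replicates. Neither value therefore measures agreement at the same region. The points share their libraries, and the values are given as a description.

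Of the members without a thresholded summit, the 10 with the strongest pooled region ranged in signal from 15.6 to 11.2. At their head was hlh-15, the NHLH1-type gene, with a pooled signal of 15.6 and rank 5228 in its 5′ UTR, and with ranks 16891 and 19863 in replicates 1 and 2. The Twist-type mesodermal gene hlh-8 followed with a signal of 13.9 in a coding exon, then the PAS gene hlh-34 with 13.6 in an intron and the Olig-type glial gene hlh-17 with 13.5 in its 5′ UTR. None of these 4 came near the thresholded signals of hif-1 or aha-1. The summits at hlh-15 and hlh-17, and that of mxl-2, the partner of the Mondo-type protein, with a signal of 13.2, lay within 66 bp of the annotated 5′ end.

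The other 5 were ahr-1, which encodes the aryl hydrocarbon receptor, with a signal of 12.5, the pharyngeal gland gene hlh-6 with 11.8, mxl-3 with 11.3, hlh-10 with 11.2 and the achaete-scute-type gene hlh-4 with 11.2. The ahr-1 region had no overlapping region in replicate 2, that of mxl-3 none in replicate 1 and that of hlh-4 none in either. The hlh-4 summit lay 1987 bp upstream, in a coding exon and also in the window of T05G5.1. Windows of other genes likewise held the summits of hlh-34 (T01D3.3) and mxl-2 (ubc-20). At the lipid regulator sbp-1, whose window of 16200 bp was the second longest of the members, the single pooled region had a signal of 6.98 and rank 29483. The muscle gene hlh-1 had 1 pooled region with a signal of 8.80, and its E protein partner hlh-2 had 2, the stronger with a signal of 7.75.

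No summit lay in the windows of 5 of the 40 bHLH genes in any of the 4 lists, against 12.3% of all genes: hlh-12, hlh-14, hlh-19, hlh-28 and hlh-29. The genes hlh-28 and hlh-29 are neighbours on X in the Notch-responsive REF-1 family and were 99.7% identical over their 1148 bp, with 4 differences. Reads from parts that are the same in both copies cannot be placed on 1 of them with certainty. The authors' treatment of such reads is not given in the sources. The pooled stretch without a summit that spans both genes was 11408 bp long, against a median of 2103.5 bp, and 3.87% of all stretches between pooled summits were as long. Identity was read over the 2 genes alone, and the rest of this gap was not compared. The part of sequence identity in the gap was not tested. The next most similar pair, hlh-25 and hlh-27, was 88.9% identical. There hlh-25 shared 1 pooled region with hlh-26, with a signal of 9.19, and hlh-27 had only a region of replicate 2, with a signal of 3.75.

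The gene hlh-33 showed how the rule on windows decides a call. It had no pooled summit in its window, but the strong peak III: 1859562 to 1859925, with a signal of 79.6 and rank 127, overlapped the end of the gene and had its summit 142 bp beyond it.

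Among 46 genes that work with these factors, listed with earlier results known, 9 had a thresholded summit (19.6%, median window 5885 bp), against 8.71% of all genes (median window 4027 bp). Of 7 genes in the degradation of HIF-1, egl-9, the prolyl hydroxylase that marks HIF-1, had a peak with a signal of 70.1 and rank 219, with its summit 1730 bp upstream, and rbx-1, of the ubiquitin ligase, had one with a signal of 31.8 that lay nearer to the start of ztf-9. The other 5 genes of that list, vhl-1, rhy-1, cul-2, elc-1 and elb-1, had none. Of 11 genes in TOR signalling and autophagy, which lie up- or downstream of HLH-30, 5 had one: lgg-2 with a strongest signal of 80.1, flcn-1 with 49.6, unc-51 with 49.5, lgg-1 with 43.2 and xpo-1 with 38.9. Of these strongest summits the window of another gene held 4, that of lgg-1 being the exception. The lgg-2 summit lay 446 bp from the start of fic-1 and 1105 bp from that of lgg-2, and the xpo-1 summit lay 66 bp from the start of uvs-1. The flcn-1 summit lay in a 3′ UTR, 19104 bp into the gene and in the window of malt-1, and the unc-51 summit was also in the window of Y60A3A.23. The median window of the 11 genes was 10500 bp.

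None of the 15 Notch pathway genes had a thresholded summit, nor did any of the 7 genes found for SREBP regulation and lipogenesis, or mml-1. With a share of 8.71% over all protein-coding genes, few or none in groups of this size is near the background. The chaperone gene hsp-90, whose product holds the aryl hydrocarbon receptor, had an intron peak with a signal of 104.6 and rank 32, 1 rank above that of hif-1. Its summit also lay in the window of C47E8.4, 329 bp from that gene's start. Of 4 genes listed as touch and proneural targets, lim-4 had a peak with a signal of 42.2 and mec-3, unc-3 and unc-86 had none.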

How the data were processed

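The narrowPeak lists on ce11 from FKH-10 ChIP-seq, with 1 group of 2 replicates, were used. Per the labels, the authors deposited candidate regions for each replicate and for the pool, called against a control, and a list thresholded by the irreproducible discovery rate. The signal of each region was the value deposited by the authors, with no stated scaling. Neither the aligner nor the caller or threshold was given in the sources. The depth is unknown. The control and the lists on ce10 were not analysed here.

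Genes came from Ensembl release 115 on WBcel235, on the 6 nuclear chromosomes. Windows ran from 2000 bp upstream of the 5′ end to the gene's end. A region in a replicate's list was matched to a pooled region by an overlap of 1 bp or more, taking the nearest summit. Words were searched on both strands within 50 bp of a summit. Identity came from a global alignment with edlib 1.3.9.post1. Python 3.11.15, pandas 2.3.3 and scipy 1.17.1 were used, and the counting of summits was tested on simulated regions. Intervals are exact binomial and cover counting only.

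The members and all gene lists were chosen with earlier results of these data known. The genes named were every member with a thresholded summit, the 10 with the strongest pooled region among the rest, every member with no summit, the listed partner genes with a thresholded summit and the 4 regions nearest the threshold. Members outside this rule (sbp-1, hlh-1, hlh-2, hlh-25 to hlh-27 and hlh-33) were named after their values were seen. With 1 group no test between conditions was made. Alternatives changed the window, the list and the replicate.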

Additional observations from a re-analysis of the deposited data

How the results depend on the processing

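The 5 bHLH genes with a thresholded summit remained 5 with 1 kb upstream or with each summit given to its nearest 5′ end alone, where the share over all genes was 6.99% and 6.44%, against 8.71% as reported. The count was 4 within 1 kb of the 5′ end (without hif-1), 6 by overlap (with hlh-33, against 9.29% of all genes) and 3 in the stronger 1002 peaks (aha-1, hif-1 and hlh-11). From single replicates it ranged from 4 to 5, the lower value without replicate 2, where hlh-30 was lost. The share over all genes was 5.48% within 1 kb of the 5′ end and 4.44% in the stronger peaks, and 8.33% to 8.62% from single replicates. Of the pooled list, 17 of the 30 members remained in the stronger regions, where the median density was 0 per 10 kb. That density was 3.94 with 1 kb upstream and 3.06 to 3.27 from single replicates, where it was 2.66 to 2.69 over all genes. For the stronger pooled regions and for 1 kb upstream no such value over all genes is given, so those values describe the members only. No paired analysis was possible because both libraries belong to 1 group. With 2 replicates, no stated scaling and unknown depth, regions below the threshold cannot be told from background.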
